A study of Mus musculus with 3 samples.

Results

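The expression of 9 heat shock chaperone genes, Hspa1a, Hspa1b, Hspa8, Hsp90aa1, Hsp90ab1, Hsph1, Dnajb1, Hspd1 and Hspe1, was examined in single mouse embryonic stem (ES) cells of a cohesin degron line, with and without auxin. The genes were taken by symbol from the 52636 genes of the count tables, and all 9 were measured. Single cells were sorted into the wells of 96-well plates and profiled by Smart-SCRB, which labels every captured messenger RNA with the barcode of its well and a random molecular tag (UMI). Repeated reads of a molecule are thereby counted once. All cells, controls included, were JM8.N4 cells of the C57BL/6N strain in which the cohesin subunit RAD21 is fused to an auxin-inducible degron. They were grown without feeders in serum, LIF and the MEK and GSK3 inhibitors PD0325901 and CHIR99021. The control group received no auxin, and the auxin group received 500 µM indole-3-acetic acid for 6 h, after which the tagged RAD21 protein is degraded. No cells without the degron were analysed here, so that an effect of auxin itself and the loss of RAD21 cannot be told apart. The experiment was carried out 3 times. In replicate 1 the deposited annotation names the wells RAD21 positive or negative instead of control or auxin, and these were taken as control and auxin. Past the filter of more than 2600 detected genes, replicate 1 held 168 control and 169 auxin cells on 2 and 2 plates, replicate 2 held 371 and 290 on 4 and 4 plates, and replicate 3 held 85 and 84 on 1 and 1. A further 168 cells on 2 plates of replicate 3 were left out, since their group is in dispute between the deposited annotation and other released values.

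Heat shock chaperones bind unfolded proteins and help them to fold, and most cells hold a constitutive pool of them that is enlarged under stress by heat shock factor HSF1. The HSP70 proteins work in a cycle in which a J-domain protein delivers the client and an exchange factor releases the nucleotide, and HSP90 receives a part of the clients afterwards. In mitochondria, the chaperonin HSP60 and its lid HSP10 form a folding chamber. HSF1 binds inverted repeats of the letters GAA and TTC.

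Both pairs of neighbouring genes among the members are shown first, since the correlation of neighbours is examined further on. Hspa1a and Hspa1b, the stress-inducible HSP70 genes, each consist of a single exon on the minus strand of chromosome 17, at chr17:34969190-34972156 and chr17:34956436-34959238 (GRCm38), with 9951 bases between them. The 250 bases before their starts, at chr17:34972157-34972406 and chr17:34959239-34959488 on the minus strand (RefSeq, GRCm38.p6), are printed because 247 of the 250 bases are the same (98.8%). Capitals mark matches to GAANNTTC or TTCNNGAA, which read the same on both strands.
Hspa1a: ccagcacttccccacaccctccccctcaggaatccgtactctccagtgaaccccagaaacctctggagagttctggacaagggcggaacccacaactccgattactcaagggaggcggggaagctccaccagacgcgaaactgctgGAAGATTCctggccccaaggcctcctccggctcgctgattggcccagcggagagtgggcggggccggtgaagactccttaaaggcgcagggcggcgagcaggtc
Hspa1b: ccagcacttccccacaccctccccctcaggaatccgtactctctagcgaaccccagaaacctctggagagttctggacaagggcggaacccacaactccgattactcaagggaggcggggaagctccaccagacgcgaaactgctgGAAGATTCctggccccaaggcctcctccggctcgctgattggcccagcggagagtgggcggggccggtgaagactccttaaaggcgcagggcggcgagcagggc
Each window held a single match, GAAGATTC, beginning 104 bases before the start. Of 32851 windows of 250 bases before annotated starts, 2199 (6.69%) held GAANNTTC, 2354 (7.17%) held TTCNNGAA and 12.8% held either.

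Hspd1, which encodes HSP60, and Hspe1, which encodes HSP10, lie head to head on chromosome 1, with Hspd1 on the minus strand at chr1:55077835-55088243 and Hspe1 on the plus strand at chr1:55088132-55091307. Their annotated spans overlap by 112 bases at the shared start region. The following 30 bases, chr1:55088051-55088080 on the plus strand (RefSeq, GRCm38.p6), are printed because they hold 3 overlapping matches to the same letters, in capitals.
Hspd1 and Hspe1: acggtccgTTCTAGAACCTTCCGGAAggcc
The run began 89 bases before the Hspe1 start, and it also lay in 1 of the 2 windows of Hspd1. The longer pattern TTCNNGAANNTTC, which this run holds, occurred on either strand in 153 of the 32851 windows (0.466%). Of the other members with a window, Hsph1 held TTCTCGAA, 54 and 33 bases before its 2 annotated starts, and Dnajb1 had no match in its 2 windows. A match is only a string of letters, and binding was not measured here.

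Levels are given as CPM, the UMIs of a gene scaled to a common total, from the summed cells of a plate. The median UMI count per cell lay between 72317 and 209426 over the plates, and 143842 in control against 187088 in auxin cells of replicate 2. Levels can be compared between the replicates only as a description. Of 5154 genes at 20 CPM or more in all 4 plates of replicate 1, 95 were listed at 0 in all 12 plates of replicates 2 and 3, among them the ES cell gene Sox2 (75.3 to 192 CPM in replicate 1), and the counting cannot be assumed to have been the same. The summed ES cell markers lay at 10103 to 11391 CPM in replicate 1, at 4326 to 5026 CPM in the control and 2920 to 3294 CPM in the auxin plates of replicate 2, and at 8814 and 9106 CPM in replicate 3. The fibroblast markers summed to 15.8 to 19.2 CPM in the control and 25.0 to 39.6 CPM in the auxin plates of replicate 2. Of these, Dcn was at 7.59 to 14.4 and 14.1 to 28.4 CPM, and Fbn1 at 1.87 to 5.71 and 1.77 to 5.88 CPM. The sum was lower in auxin in replicate 1 (6.86 to 8.22 and 3.53 to 5.01 CPM) and in replicate 3 (22.3 and 15.0 CPM). Blood markers summed to at most 1.79 CPM in any plate.

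Hspa1a was low in every plate and reached its highest level in 1 auxin plate of replicate 1. In replicate 1 the control plates were at 8.34 and 7.38 CPM and the auxin plates at 26.5 and 6.96 CPM. In replicate 2 the control plates were at 0.984, 0.811, 0.897 and 1.14 CPM and the auxin plates at 3.24, 3.34, 5.31 and 6.26 CPM. In replicate 3 the control plate was at 2.97 CPM and the auxin plate at 2.24 CPM. The groups were apart in replicate 2, with every auxin plate above every control plate, and overlapped in replicate 1. The control plates of replicate 2 were the lowest of all plates, and its auxin plates did not reach the control plates of replicate 1. The second order rested on single cells. Without the cell with most Hspa1a UMIs of each plate, the control plates of replicate 1 were at 4.09 and 1.69 CPM. The auxin plates of replicate 2 were then at 2.38, 2.61, 3.09 and 3.63 CPM, and its control plates remained lowest, at 0.247 to 0.662 CPM.

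Hspa1b was nearly absent. It had 0 UMIs in the control cells of replicate 1 and in both groups of replicate 3, which allows an upper limit of 2.17%, 4.25% and 4.30% of the cells with a UMI (exact 95% binomial limits, counting error only). The auxin cells of replicate 1 held 5 UMIs, all on 1 plate, the control cells of replicate 2 held 16 and its auxin cells 13. Over the 1167 cells, Hspa1a had 785 UMIs and Hspa1b 34, with transcripts of similar length (2967 and 2803 bases). None of the 451 windows of 50 bases in the last 500 bases of either transcript occurred in a transcript of another gene, so that reads from this end could be told apart between both genes.

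Hspa8, the constitutive HSP70, was found in nearly every cell. Its control and auxin plates were at 929 and 747 against 932 and 831 CPM in replicate 1, and at 713 against 593 CPM in replicate 3. In replicate 2 they were at 477, 537, 496 and 520 against 510, 628, 572 and 584 CPM, and the groups overlapped in replicates 1 and 2. Its level is uncertain, since 81.8% of the 50-base windows in the last 500 bases of its transcript also occur in transcripts of 11 other genes, all of them annotated pseudogenes.

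Dnajb1, the J-domain partner that HSF1 activates together with Hspa1a, went apart between the groups in both replicates with several plates, and in opposite directions. In replicate 1 the control plates were at 142 and 135 CPM and the auxin plates at 107 and 108 CPM. In replicate 2 the control plates were at 58.5, 59.0, 56.2 and 52.6 CPM and the auxin plates at 97.1, 116, 109 and 107 CPM. In replicate 3 the control plate was at 96.1 CPM and the auxin plate at 116 CPM. The plates left out were at 89.1 CPM (annotated as control) and 121 CPM (annotated as auxin). The control plates of replicate 2 were thus the low ones, and its auxin plates lay in the range of the untreated plates of replicates 1 and 3. In each control plate of replicate 1 a single cell carried a large part of the transcripts. Without the cell with most Dnajb1 UMIs, these plates fell to 122 and 104 CPM and the auxin plates of replicate 1 to 103 and 103 CPM, while replicate 2 remained apart, at 50.6 to 56.9 CPM in control and 91.3 to 109 CPM in auxin.

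Hsph1, the HSP110 that acts as an exchange factor for HSP70, was at 214 and 139 CPM in control and 197 and 141 CPM in auxin plates of replicate 1, and at 281 and 251 CPM in replicate 3. In replicate 2 its control plates were at 185, 140, 180 and 173 CPM and its auxin plates at 199, 216, 227 and 195 CPM. All auxin plates lay above all control plates in replicate 2, by a small margin.

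Hsp90ab1, the constitutive cytosolic HSP90, was at 3826, 3721, 3958 and 4038 CPM in the control and at 4582, 4586, 4580 and 4744 CPM in the auxin plates of replicate 2. The groups did not overlap there. In replicate 1 the control plates were at 5020 and 4198 CPM and the auxin plates at 4800 and 3631 CPM, so that plates of 1 group differed by more than the groups did, and replicate 3 was at 3560 and 3576 CPM. Hsp90aa1, the stress-responsive HSP90, was at 1123 and 1189 CPM in control and 916 and 1057 CPM in auxin plates of replicate 1. It was at 357 to 383 CPM in control and 348 to 386 CPM in auxin plates of replicate 2, and at 409 and 419 CPM in replicate 3, well below replicate 1.

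Of the mitochondrial chaperonin genes, Hspd1 varied little between plates and Hspe1 more. Hspd1 lay between 1234 and 1506 CPM over the 14 plates used. In replicate 2 its control plates were at 1369, 1407, 1257 and 1408 CPM and its auxin plates at 1506, 1425, 1437 and 1373 CPM. Hspe1 lay at 1161, 1328, 1247 and 1320 CPM in control and 1277, 1242, 1192 and 1187 CPM in auxin plates of replicate 2. It was at 1598 and 1562 against 1536 and 1515 CPM in replicate 1, and at 909 CPM in control against 1239 CPM in auxin of replicate 3. That gap rests on 1 plate a group. The plates left out of replicate 3 were at 1154 CPM (annotated as control) and 1311 CPM (annotated as auxin), and the other released values place them in the opposite groups. Of the windows at the end of the Hspe1 transcript, 53.2% also occur in transcripts of 6 other genes, 5 of them pseudogenes, and its level is uncertain for this reason.

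**Figure D1:**
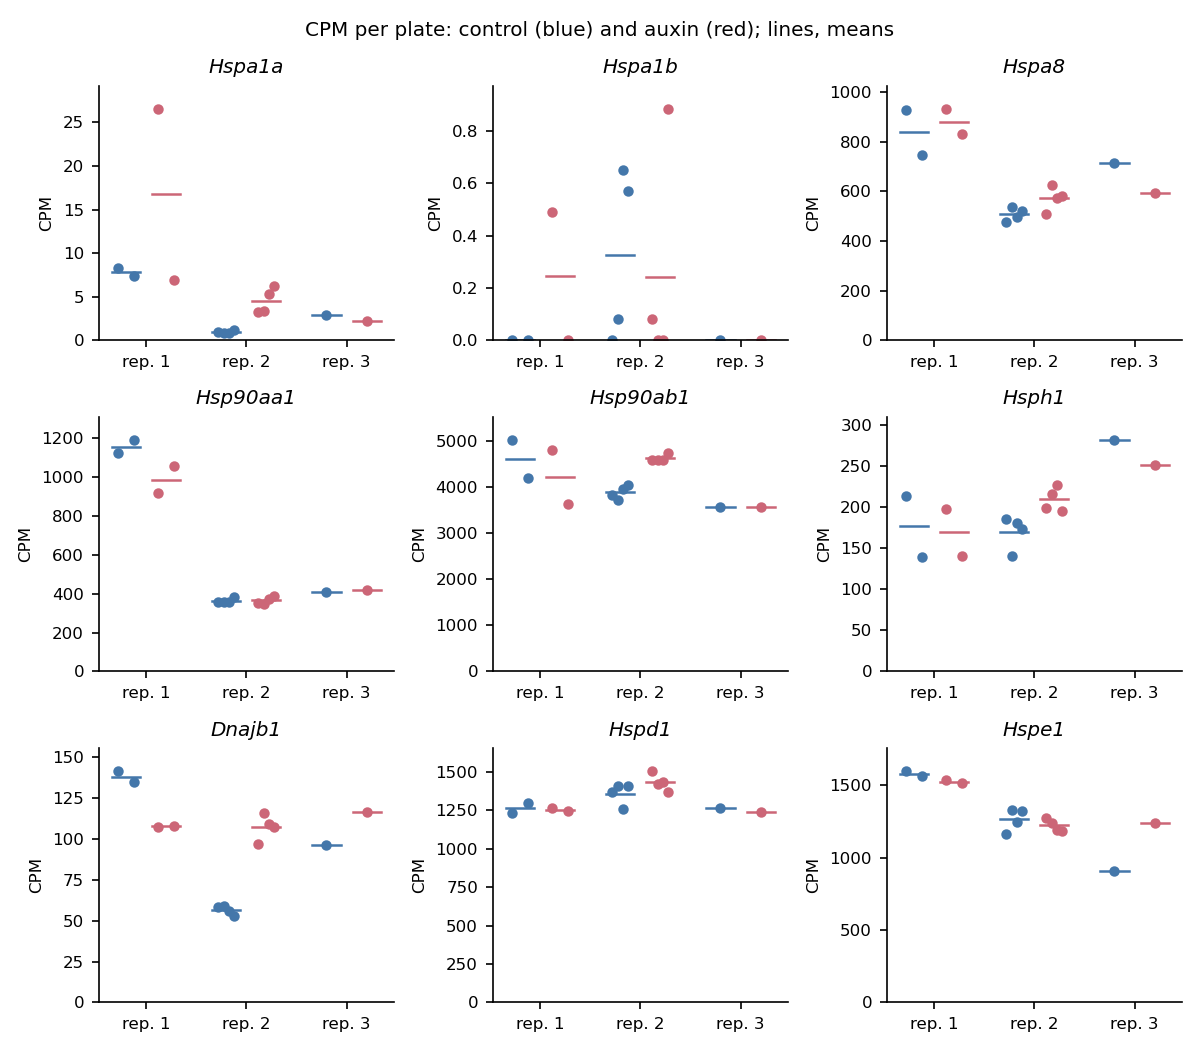
CPM of each of the 9 genes in each plate (points), with the mean of the plates as a line, for control (blue) and auxin (red) in replicates 1, 2 and 3. Dnajb1 and Hspa1a stand apart between the groups in replicate 2, where all control plates of Dnajb1 are at or below 59.0 CPM and all auxin plates at or above 97.1 CPM.

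Whether these genes differed between auxin and control was first tested over the 3 replicates, with counts summed per replicate and condition (edgeR quasi-likelihood test, Benjamini-Hochberg adjustment over all genes tested, threshold 0.05). This fit did not use the pairing of control and auxin sums by replicate. None of the 8 members tested passed, and neither did any of the 17514 genes (0.0%). At an unadjusted p under 0.05 there were 33 genes, and DESeq2 also called 0 genes (66 at an unadjusted p under 0.05). Hspa1b was removed by the filter on low counts. Hspa1a differed by 1.03 ± 1.15 on the log2 scale (SE, n = 3 replicates, adjusted p = 1.00) and Dnajb1 by 0.11 ± 0.42 (adjusted p = 1.00), and the other 6 members lay between -0.17 and 0.05. With the replicate as a block, 3 genes passed (0.0171%, of which 0.00571% rose and 0.0114% fell) and no member did. Hspa1a was then at 1.16 ± 0.46 with an adjusted p of 0.826 (edgeR, unadjusted p = 0.0331, with 1036 genes at an unadjusted p under 0.05), and Dnajb1 at 0.27 ± 0.21.

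Within replicate 2, 4 control plates were compared with 4 auxin plates by the same test. No source says that plates of a replicate came from separate cultures, so that these p-values measure the spread between plates, which may be technical. Of the 8 members tested, 3 rose and 0 fell, against 2.79% and 2.64% of the 16349 genes tested (5.43% in both directions). Hspa1a rose by 2.20 ± 0.39 on the log2 scale (SE, adjusted p = 0.00686), a ratio of 4.59. Its control level, and thus the ratio, is uncertain, since the share of cells alone cannot tell it from background. In replicate 2, 4.85% of the control cells held a UMI, and 5 blood markers were each in 0% to 11.1% of the same cells. Of the 18 control cells with a UMI, 9 held only 1 and the highest held 7. Dnajb1 rose by 0.89 ± 0.09 (adjusted p = 0.000202), a ratio of 1.85. Hsp90ab1 rose by 0.22 ± 0.04 (adjusted p = 0.00491), a ratio of 1.16. Each of these was higher in 4 of 4 auxin plates, and each passed whichever plate was left out and also without the top Dnajb1 and top Hspa1a cell of every plate. Hsph1 was at 0.27 ± 0.09 and did not pass (adjusted p = 0.0960), while with DESeq2 it did (0.27, adjusted p = 0.0342). Hspa8 was at 0.14 ± 0.07 (adjusted p = 0.311), Hspd1 at 0.04 ± 0.06, Hspe1 at -0.08 ± 0.06 and Hsp90aa1 at -0.03 ± 0.06, none of which passed. The median of the 8 members was 0.18, and that of all genes tested 0.01. Counted by plates alone, Hspa1a, Dnajb1, Hsp90ab1 and Hsph1 had every auxin plate above every control plate, against 8.01% of all genes, and 0 members had every auxin plate below, against 6.01%.

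Other values moved with condition in replicate 2. The UMI counts, the summed ES cell markers and the summed fibroblast markers are given above. Besides these, 2 of 11 immediate early genes, which respond to handling and to growth signals, rose there and 0 fell, against 2.79% and 2.64% of all genes. Jun was at 4.18 to 7.17 CPM in control and 21.9 to 30.9 CPM in auxin plates, and Btg2 at 33.8 to 43.6 and 80.2 to 97.8 CPM. Jun is named because it passed. The other 9 genes of this list did not pass, and its median log2 fold change was -0.16. Ier2, its most abundant gene, was at -0.14 ± 0.07. The summed list overlapped, at 597 to 643 CPM in control and 583 to 691 CPM in auxin plates. Of 11 ES cell markers tested, 5 fell and 0 rose, against the same shares of all genes, among them Dppa5a from 3144 to 3838 CPM down to 1974 to 2281 CPM. Their part in the change of the chaperone genes was not tested.

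Within replicate 1, none of the 8 members passed with 2 plates against 2, and neither did any of the 13583 genes tested (0.0%, with 713 at an unadjusted p under 0.05, and 29 called by DESeq2). Dnajb1 was at -0.41 ± 0.16 on the log2 scale (adjusted p = 0.877) and at -0.21 without the top Dnajb1 and top Hspa1a cell of every plate. Hspa1a was at 1.05 ± 0.56 (adjusted p = 0.989) and at -0.22 without auxin plate 1. Hsp90aa1 was at -0.28 ± 0.14 and Hsp90ab1 at -0.17 ± 0.15. By plates alone, 0 members lay above in auxin, against 20.5% of all genes, and Dnajb1, Hspe1 and Hsp90aa1 lay below, against 14.2%.

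The difference of the auxin effect between the replicates was then tested, as an interaction over the 12 plates of replicates 1 and 2. These p-values measure the spread between plates only. They cannot show that separate cultures differ, since each replicate was 1 run. Dnajb1 was the only member of the 8 that passed, with 71 of 19781 genes (0.359%) passing in all, 0.238% with a higher and 0.121% with a lower effect in replicate 2. Its effect was higher in replicate 2 by 1.28 ± 0.16 on the log2 scale (edgeR, adjusted p = 0.00360), by 1.24 to 1.32 whichever plate was left out, and by 1.07 without the top Dnajb1 and top Hspa1a cell of every plate (adjusted p = 0.0131). Hsp90ab1 was higher by 0.38 ± 0.12 and did not pass (adjusted p = 0.225), and the value rested on single plates of replicate 1. It was 0.60 without auxin plate 1 (adjusted p = 0.0170) and 0.17 without auxin plate 2 (adjusted p = 0.564). For Hspa1a the difference was 1.13 ± 0.66 and did not pass (adjusted p = 0.564). It was 2.41 without auxin plate 1 of replicate 1 (adjusted p = 0.144), 0.46 without auxin plate 2 (adjusted p = 0.896), and 1.83 without the top cells (adjusted p = 0.326).

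**Figure D2:**
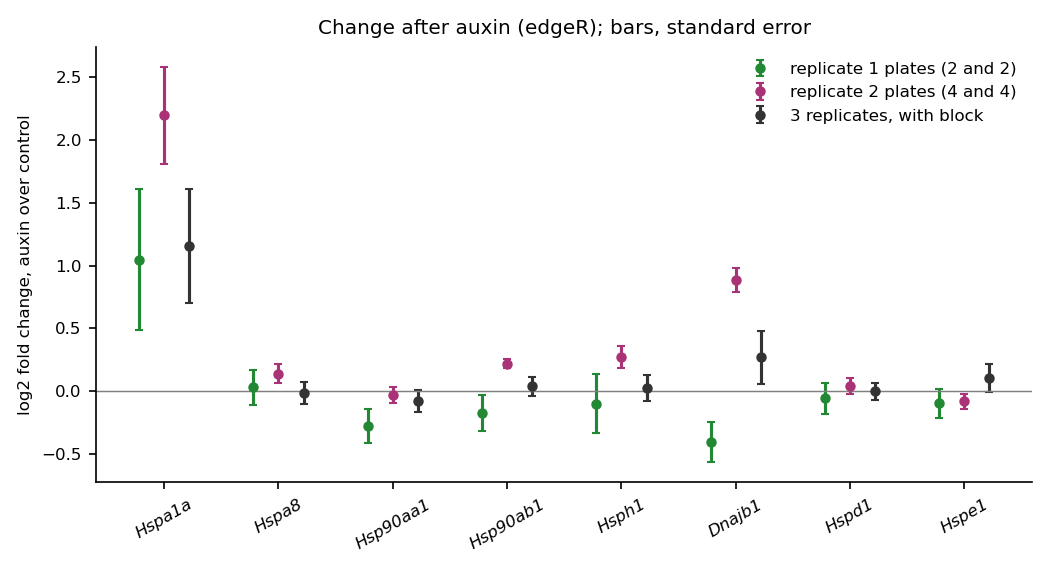
Log2 fold change of auxin over control for the 8 members tested, with standard errors as bars, from the plates of replicate 1, the plates of replicate 2 and the 3 replicates with a block. Dnajb1 lies at -0.41 in replicate 1 and at 0.89 in replicate 2, and Hspa1a at 1.05 and 2.20 with wide bars.

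Hspa1a was confined to few cells, and the share of cells with at least 1 UMI was therefore counted. Without correction for depth, 14 of 168 control cells (8.33%, exact 95% interval 4.63% to 13.6%) and 23 of 169 auxin cells (13.6%) held a UMI in replicate 1. In replicate 2 there were 18 of 371 (4.85%, 2.90% to 7.56%) and 36 of 290 (12.4%, 8.85% to 16.8%), and in replicate 3 there were 4 of 85 (4.71%) and 5 of 84 (5.95%). The most frequent of 5 blood markers, which ES cells should lack, was found in 1.79% to 11.1% of the cells of a group, and the least frequent in 0%. The lower of these shares therefore cannot be told from stray molecules by the share alone. After every cell was thinned to 20000 UMIs, which left out 8 control and 13 auxin cells of replicate 2 and 1 and 5 of replicate 3, replicate 1 had 5.36% and 7.69%, replicate 2 had 2.20% and 5.78%, and replicate 3 had 2.38% and 1.27%. Auxin minus control averaged 1.60 ± 2.43 percentage points (SD over 3 replicates, p = 0.5 in an exact sign-flip test, both sides). This test reaches no p below 0.25 with 3 replicates. The sign in replicate 3 depended on the setting, and all 3 replicates were above 0 without thinning (mean 4.69), at 60000 UMIs (mean 2.66), at 2 UMIs or more (mean 0.924) and with the left-out plates as annotated (mean 2.06), each with p = 0.25 in the exact test.

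Dnajb1 was found in most cells, and the order of its shares in replicate 3 depended on the depth to which cells were thinned. After thinning to 20000 UMIs, replicate 1 had 63.1% and 72.2%, replicate 2 had 51.2% and 67.1%, and replicate 3 had 71.4% and 78.5%. The difference was positive in 3 of 3 replicates, averaging 10.7 ± 4.64 percentage points (SD over 3 replicates, p = 0.25 in the same exact test, its smallest value). Without thinning, the shares were 85.7% and 89.9%, 71.4% and 82.1%, and 88.2% and 86.9%, so that replicate 3 turned. Thinned to 60000 UMIs, a depth chosen after the data were seen, replicate 3 was at -5.44 percentage points and the mean at 2.48. With the left-out plates in the groups opposite to their annotation, replicate 3 was at 0.0593 points and the mean at 8.35 ± 7.95. In replicate 1 the share was higher in auxin although the CPM was lower, and no order is read from the share there. The thinned share of Hsph1 differed by 2.91 ± 4.85 percentage points (p = 0.5 in the same exact test) and had no common sign, with 75.6% and 83.4%, 81.0% and 83.8%, and 90.5% and 88.6%. Hspa1b was in at most 1.44% of the thinned cells of a group, and the other 5 members were in at least 98.6%.

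**Figure D3:**
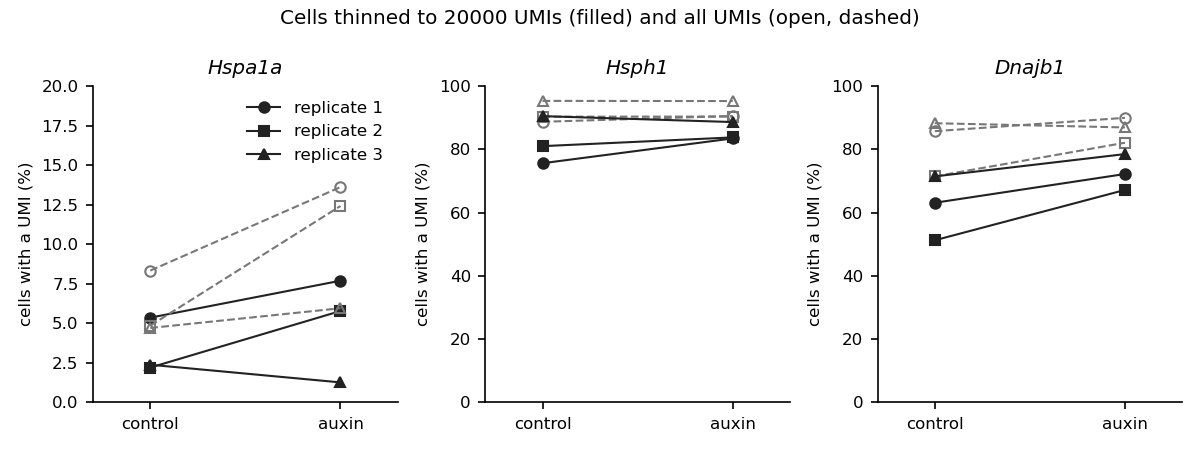
Share of cells with at least 1 UMI of Hspa1a, Dnajb1 and Hsph1 in control and auxin, with lines for each replicate. Filled points and solid lines are cells thinned to 20000 UMIs, and open points and dashed lines are all UMIs. For Dnajb1 all 3 solid lines rise, from 51.2% to 67.1% in replicate 2, while for Hspa1a and Hsph1 the solid line of replicate 3 falls. The dashed line of replicate 3 falls for Dnajb1, from 88.2% to 86.9%, and rises for Hspa1a, from 4.71% to 5.95%.

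Among the 100 cells of 1167 that held Hspa1a, most had few molecules and a few had many. The median in these cells was 2.5 UMIs in control and 5 in auxin for replicate 1, 1.5 and 2.5 for replicate 2, and 3.5 and 3 for replicate 3. The highest control and auxin cell held 55 and 217 UMIs (replicate 1), 7 and 37 (replicate 2), and 10 and 5 (replicate 3). The cell with 217 UMIs accounted for 65.2% of the Hspa1a UMIs of its group, and auxin plate 1 of replicate 1 was at 5.26 CPM without it. In auxin plate 2 of replicate 1 the top cell held 36.5% of the Hspa1a UMIs, and the plate was at 4.46 CPM without it. In control plates 1 and 2 the top cell held 51.4% and 77.5%, and these plates were at 4.09 and 1.69 CPM without it. In the auxin group of replicate 2 as a whole no such cell dominated, since the highest held 16.0% of the UMIs, and 8 cells had 10 UMIs or more against 0 in control. Within its single plates, the top cell held 23.8% to 43.5% of the UMIs, and auxin plates 3 and 4 were at 3.09 and 3.63 CPM without it. Hspa1b was found in 11 cells, and 2 of these also held Hspa1a. The cell with 217 Hspa1a UMIs also held 4 Hspa1b UMIs.

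**Figure D4:**
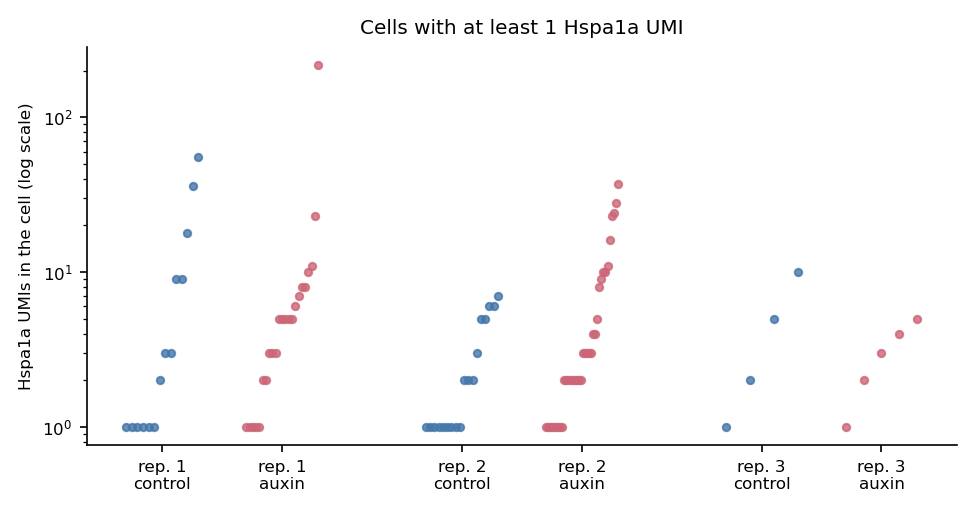
Hspa1a UMIs in each cell that held at least 1, on a log scale, sorted within each group. The top cell of the auxin group of replicate 1 reaches 217 UMIs, and 8 auxin cells of replicate 2 reach 10 or more against 0 control cells.

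The other members were read in the 10 cells with the highest Hspa1a level, as the percentile of the cell within its own group, and these cells were picked by Hspa1a alone. The median percentile was 80.7 for Dnajb1, 73.3 for Hsp90aa1, 61.6 for Hsph1, 55.4 for Hspa8, 49.3 for Hspe1, 37.6 for Hspd1 and 12.5 for Hsp90ab1. Of the other genes read in these cells, the J-domain gene Dnaja1 was at 74.7, Jun at 63.2, Hspb1 at 49.9, Fos at 48.5 and Bag3 at 42.3. The top control cell of each plate of replicate 1 had Dnajb1 at 1929 and 2236 CPM, and the cell with 217 Hspa1a UMIs had it at 330 CPM. With 10 cells, of which 5.03 was the lowest and 99.7 the highest percentile for Dnajb1, this is a description of single cells.

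The spread between cells differed among the members. The coefficient of variation of CPM over the cells of a group was 0.22 to 0.38 for Hsp90ab1, 0.27 to 0.40 for Hspd1, 0.30 to 0.40 for Hspe1, 0.31 to 0.45 for Hspa8 and 0.35 to 0.45 for Hsp90aa1. It was 0.66 to 0.88 for Hsph1, 0.78 to 2.01 for Dnajb1 and 4.64 to 8.31 for Hspa1a. Genes with fewer molecules vary more by counting alone, and this was not removed.

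Coexpression was then measured as the Spearman correlation of CPM across the cells of a group. These cells came from 1 to 4 plates and differed in depth. Of the 36 pairs, 21 are among the 7 members found in most cells. Hspd1 and Hspe1, the head-to-head neighbours, correlated at 0.189 in control and 0.221 in auxin of replicate 1. The values were 0.458 and 0.481 for replicate 2, and 0.336 and 0.402 for replicate 3. The median of the other 20 pairs was 0.0399 and 0.00438, 0.130 and 0.120, and 0.0322 and 0.0248 in the same order. This pair was thus the highest of the 21 in replicates 2 and 3, and in replicate 1 it came below Hsp90ab1 and Hspe1 (0.319 and 0.234) and below Hspa8 and Hsph1 (0.249 and 0.222). Among the 6430 other genes with at least 1 UMI per cell in every group, Hspe1 came at rank 574 and 149 (replicate 1), 5 and 2 (replicate 2), and 15 and 3 (replicate 3) for its correlation with Hspd1.

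The correlation of this pair depended on how depth was handled, but it was positive in every group in each way tried. Its mean over the 6 groups was 0.348 on CPM, 0.343 within plates, 0.306 given the UMI count of the cell, 0.241 after thinning to 20000 UMIs and 0.769 on raw counts. After thinning it was weak in 3 of the 6 groups, both groups of replicate 1 and the control of replicate 3, at 0.0855 to 0.0938. After auxin it changed by 0.0323, 0.0233 and 0.0662 in replicates 1, 2 and 3, on average by 0.0406 ± 0.0227 (SD over 3 replicates, p = 0.25 in the exact sign-flip test). The change depended on the measure. Thinning raised its mean to 0.143, carried by replicate 3, where the correlation went from 0.0938 to 0.424 (0.0855 to 0.0859 in replicate 1 and 0.329 to 0.427 in replicate 2), while the Pearson correlation of log2 values lowered it to 0.00889 and turned replicate 3, with 0.365 in control and 0.303 in auxin. Given the UMI count, replicate 1 turned (0.215 and 0.177), as it did on raw counts (0.693 and 0.684). With the left-out plates of replicate 3 placed in the groups opposite to their annotation, that replicate turned (0.375 and 0.331), and the mean was 0.00374. Over the 21 pairs, 10 rose and 11 fell in replicate 1, 13 rose and 8 fell in replicate 2, and 11 rose and 10 fell in replicate 3.

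Hspa1a and Hspa1b, the pair with nearly identical upstream sequences, showed no clear relation at this depth. Their correlation was 0.137 in the auxin cells of replicate 1, 0.0815 in the control and -0.0444 in the auxin cells of replicate 2, and it was undefined in the 3 groups in which Hspa1b was at 0. Hsp90ab1 and Dnajb1 had a correlation below 0 in all 6 groups, from -0.218 to -0.0253. After Hspd1 and Hspe1, the highest means over the 6 groups were those of Hsph1 and Hspd1 (0.195), Hspa8 and Hsph1 (0.192), Hsp90aa1 and Hsp90ab1 (0.166), Hspa8 and Hspd1 (0.155), and Hspa1a and Dnajb1 (0.145). The last pair, of the inducible HSP70 and its partner, was above 0 in 6 of 6 groups, from 0.0266 to 0.306, but Hspa1a was at 0 in most cells, and the value is weak.

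**Figure D5:**
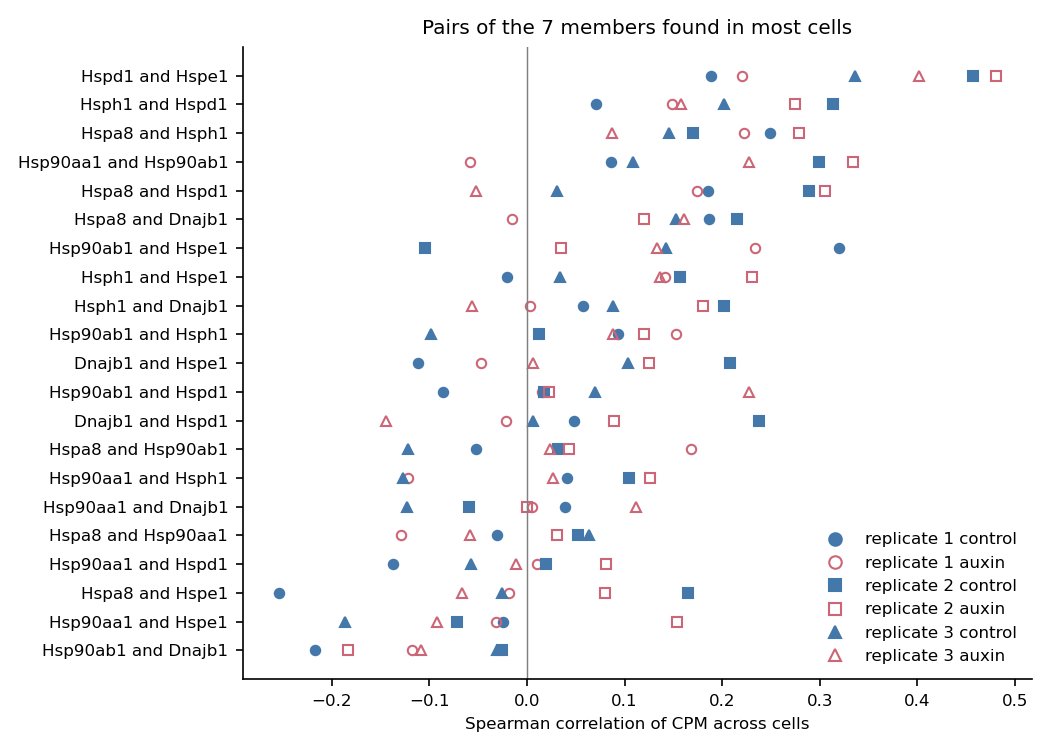
Spearman correlation of CPM across cells for the 21 pairs among the 7 members found in most cells, in each replicate (circle, square, triangle for replicates 1, 2, 3) and condition (filled blue, control, and open red, auxin). Hspd1 and Hspe1 lie from 0.189 to 0.481, and Hsp90ab1 and Dnajb1 below 0 throughout.

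The genes most like each member across cells were ranked by the mean of this correlation over the 6 groups. For Hspa1a they were Dnajb1 (0.145), March2 (0.144) and Bckdha (0.141), all weak and resting on few cells. For Hspa8 they were Ccnb1 (0.366), Tubb5 (0.360) and Tuba1b (0.352). For Hsp90ab1 they were Ncl (0.451), mt-Rnr2 (0.398) and mt-Rnr1 (0.379), and for Hsp90aa1 they were Eif3c (0.179), Hsp90ab1 (0.166) and Blvrb (0.153). For Hspd1 they were Cnbp (0.360), Ptma (0.360) and Hspd1-ps3 (0.356), a pseudogene of Hspd1, and for Hspe1 they were Dtymk (0.376), Snrpe (0.354) and Rpl37a (0.349). For Hsph1 they were H2afz (0.240), C1qbp (0.218) and Pfn1 (0.203). For Dnajb1 all values were low, with Rbpms2 (0.220), Mindy1 (0.186) and Kctd5 (0.185).

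The wider chaperone network was described by 7 lists of 56 genes. Over the 3 replicates and within replicate 1, 0 of the 55 tested passed in either direction. Within replicate 2, 7 of the 54 tested rose and 1 fell, against 2.79% and 2.64% of all genes, with a median log2 fold change of 0.05 in the lists and 0.01 over all genes. Hspa5, the HSP70 of the endoplasmic reticulum, rose by 0.74 ± 0.08 (edgeR, adjusted p = 0.000231), from 463 to 517 CPM in control to 737 to 968 CPM in auxin plates. Hsp90b1, the HSP90 of the same compartment, rose by 0.67 ± 0.07, from 574 to 653 CPM to 901 to 1119 CPM, and Dnajc3, a J-domain protein of the same compartment, rose by 0.58 ± 0.11. Among cytosolic J-domain genes, Dnaja1 rose by 0.33 ± 0.08, Dnajb4 by 1.15 ± 0.28 and Dnajc5 by 0.44 ± 0.12. Hspa13 rose by 0.87 ± 0.22, and Trap1, the mitochondrial HSP90, fell by 0.33 on the log2 scale. These 8 genes, Hspa5 apart, are named because they passed, so after their values were seen. In the interaction between replicates 1 and 2, 0 of the 55 genes of the lists passed.

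By list, 0 of the 3 genes Hsf1, Hsf2 and Hsbp1, 0 of 6 exchange factors and their partner ligase, 0 of 5 small heat shock proteins and 0 of 8 subunits of the cytosolic chaperonin CCT passed in replicate 2. Hsf1 itself was at 26.7 to 39.1 CPM in control and 29.7 to 33.8 CPM in auxin plates of replicate 2, a log2 fold change of -0.06 ± 0.13. Hsbp1, which binds HSF1, was likewise at -0.06 ± 0.07. The most abundant genes of the list of exchange factors and ligase were the exchange factor Grpel1 (0.11 ± 0.07) and the ubiquitin ligase Stub1 (-0.04 ± 0.08), and those of CCT were Cct7 (-0.08 ± 0.05) and Cct4 (0.03 ± 0.06), as log2 fold changes in replicate 2. Among the lists with calls, the abundant members that did not pass were the mitochondrial HSP70 gene Hspa9 (-0.05 ± 0.07), the J-domain genes Dnaja2 (0.12 ± 0.05) and Dnajb6 (-0.11 ± 0.09), and the HSP90 co-chaperones Fkbp4 (-0.13 ± 0.05) and Ptges3 (0.01 ± 0.06). Hspb1, a small heat shock protein, was at 0.16 ± 0.13 and Hspb8 at -0.28 ± 0.12. The small heat shock proteins summed to 105 to 129 CPM in the control plates of replicate 2, against 494 to 560 CPM in those of replicate 1 and 523 CPM in the control plate of replicate 3. The order was not the same for every list, since CCT summed to 7451 to 7775 CPM in the control plates of replicate 2 against 5652 to 5981 CPM in those of replicate 1.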

How the data were processed

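Smart-SCRB libraries of 3 replicates were analysed as UMI counts per gene and well, which the authors deposited without normalization or a filter on cells. The reads were aligned to mm10 per the labels. The aligner, the counting program and the annotation are not given in the sources used here. The authors also deposited, per well, the number of detected genes and the percent of reads by mapping class (14.5% to 23.0% of reads per plate mapped to several places), and, per plate, the saturation as a fraction (0.283 to 0.579). The number of detected genes equalled the value recomputed from the counts in 1536 of 1536 wells.

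Wells passed at over 2600 detected genes, the study's own limit. The 92 ERCC transcripts and 11 transgenes were left out. Plates were grouped by the annotation the authors deposited (in replicate 1, RAD21 positive wells were taken as control and RAD21 negative wells as auxin), and 168 cells of 2 replicate 3 plates, on which the annotation and the released values of the study differ, were left out of the main values. Cells were sorted singly into wells, and no doublet caller was run. Plates share from 0 to 96 well barcodes, since the barcode set is reused, and 0 cells had identical counts.

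CPM was taken from counts summed per plate. Sums per replicate and condition, and plate sums within replicates 1 and 2, were tested in R 4.3.3 by the quasi-likelihood method of edgeR 4.0.16 (TMM scaling, its filter on low counts, Benjamini-Hochberg adjustment, threshold 0.05), and with DESeq2 1.42.0 as an alternative. The replicate numbers pair the samples, since each replicate was one run of the whole procedure with both conditions, and the deviations of control and auxin sums from their group means correlated at 0.866, 0.824 and 0.666. Shares of cells were taken after thinning to 20000 UMIs (seed 1) and compared over replicates by an exact sign-flip permutation test. Intervals are exact 95% binomial limits and cover counting error only. Correlations across cells are Spearman values of CPM and carry no test. Motifs and windows came from RefSeq tables of GRCm38.p6, which held 6 of the 9 members. The tests were tested on simulated data. Python 3.11.15, numpy 2.4.6, scipy 1.17.1 and pandas 2.3.3 were used.

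The members and the gene lists were chosen with earlier results of these data known. Besides the members, the 2 genes with the highest mean CPM of each list were to be named, and for likeness the 3 genes with the highest mean correlation. Alternatives changed the tool, the filters on genes and cells, the block, the replicates or plates used, the placement of the left-out plates, the thinning and the correlation measure.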

Additional observations from a re-analysis of the deposited data

Results flagged for a closer look

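Within the 4 plates of a group of replicate 2, a single plate stood apart from the others in 3 of the 18 sets of values (9 members, 2 conditions), by the gap to its nearest neighbour relative to the range. Chance sets about 1 in 20 such groups apart. Hspa1b was at 0.884 CPM in auxin plate 4, from 12 UMIs, against 0 to 0.0831 CPM in the other 3 auxin plates. Hsp90aa1 was at 383 CPM in control plate 4 against 357 to 359 CPM in the other 3. Hsp90ab1 was at 4744 CPM in auxin plate 4 against 4580 to 4586 CPM, and it rose in replicate 2 without this plate too.

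The effect of auxin on Dnajb1 differed between replicates 2 and 1 by 1.28 on the log2 scale (edgeR interaction test over 12 plates, adjusted p = 0.00360). The control plates were at 135 and 142 CPM in replicate 1 and at 52.6 to 59.0 CPM in replicate 2, and the auxin plates at 107 to 108 and 97.1 to 116 CPM. No source says that plates within a replicate came from separate cultures, so that this p-value measures the spread between plates only. The wells of replicate 1 are annotated as RAD21 positive or negative, and were taken as control and auxin. The counting of replicate 1 and the percent of mitochondrial counts (4.46% to 4.70% in replicate 1, 1.78% to 2.26% in the others) also differ between the replicates. The part of these differences in the result was not tested.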

How the results depend on the processing

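The replicate numbers pair the samples, and the replicate block raised the calls over 3 replicates from 0 to 3 genes with edgeR and to 56 with DESeq2. With the left-out plates, the block gave 3 as annotated and 0 in the opposite groups, and no member was called. Within replicate 2, 888 genes passed with edgeR and 1608 with DESeq2, and from 469 to 671 with 1 plate left out. Within replicate 1, 0 passed with edgeR, 29 with DESeq2, 98 without the filter on low counts, and from 3 to 9 with 1 plate left out, which assumes that the lone plate varies like the others. The interaction called 71 genes, 416 with DESeq2 and from 38 to 67 with 1 plate left out. The 3 members called in replicate 2 and Dnajb1 in the interaction passed under all of the alternatives run for these comparisons. Raw counts gave Hspd1 and Hspe1 a mean correlation of 0.769. The cause of these differences was not tested, apart from the smaller number of plates in the fits that leave 1 out.

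Log2 fold changes that turned sign passed no test. With 1 replicate left out of the 3, Hspa8 ranged from -0.057 to 0.084, Hsp90aa1 from -0.22 to 0.026, Hsp90ab1 from -0.079 to 0.14, Hsph1 from -0.10 to 0.089, Dnajb1 from -0.12 (without replicate 2) to 0.56 (without replicate 1), Hspd1 from -0.031 to 0.025 and Hspe1 from -0.082 to 0.18. Without the filter on low counts, Hspa8 was at 0.020 and Hspd1 at 0.018. With the left-out plates as annotated, Hspa8 was at 0.035 and Hspd1 at 0.0076 (0.038 and 0.013 with the block). With these plates in the opposite groups, Hspa8 was at 0.013, Hspe1 at -0.038 and Dnajb1 at -0.010 (Hspa8 0.014 and Hspe1 -0.023 with the block). With DESeq2, Hsp90ab1 was at -0.0022 and Hsph1 at -0.013, and with cells of more than 4000 genes Hsph1 was at -0.0025. With 1 plate left out, Hspd1 ranged from -0.013 to 0.076 in replicate 2. In replicate 1, Hspa1a ranged from -0.22 (without auxin plate 1) to 1.71, Hspa8 from -0.070 to 0.15, Hsp90ab1 from -0.38 to 0.020, Hsph1 from -0.36 to 0.20 and Hspd1 from -0.13 to 0.031. In the interaction, Hspa8 ranged from -0.046 to 0.21 and Hspe1 from -0.038 to 0.040, with Hspe1 at -0.012 with DESeq2. The share of cells turned to -0.0251 percentage points for Hsp90aa1 and 0.219 for Hspd1 without thinning, to 0.240 for Hspa8, -0.127 for Hsp90aa1 and 0.0696 for Hspd1 at 2 UMIs or more, and to -0.564 for Hsph1 at 60000 UMIs.

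Chosen after seeing the data were the thinning to 60000 UMIs, the correlation given the UMI count, the block with the left-out plates, the interaction without each plate, and the fits without the top Dnajb1 and top Hspa1a cells. Depth limits Hspa1a and Hspa1b most, with 785 and 34 UMIs in 1167 cells.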
